A study of Homo sapiens with 12 samples.

Results

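The genes described are 44 named genes of the extracellular matrix and its remodelling, out of 35810 genes with summed counts. By gene name and function they are 3 fibrillar collagens, 5 basement membrane collagens, 3 other collagens, 7 laminins, 4 basement membrane linkers, 10 matrix glycoproteins and proteoglycans, 6 proteases, inhibitors and hyaluronan remodelling genes, and 6 collagen crosslinking enzymes. Of these, 36 passed the filter on low counts and were tested. The 8 below it were COL5A1, COL4A1, COL4A2, COL6A2, LAMB3, NID2, FBN2 and EFEMP1.

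Messenger RNA was measured in HepG2, a line grown from a human liver tumour, in 4 groups of 3 libraries. ARID1B-KO cells, in which CRISPR/Cas9 was directed at ARID1B, a subunit of the BAF chromatin remodelling complex, received 5 µM sorafenib or DMSO, and wild-type cells received the same treatments. Sorafenib is a kinase inhibitor used against liver cancer, treatment lasted 48 h, and DMSO was the vehicle at 0.1% by volume. The number of knockout clones is not given in the labels, so an effect of ARID1B and a difference between the cell populations that carry it cannot be told apart. Whether fewer cells made a transcript or each cell held less of it cannot be told apart in bulk RNA either.

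The extracellular matrix is the protein and sugar scaffold that cells secrete around themselves. Its thin form, the basement membrane, is built from networks of type IV collagen and laminin joined by nidogen, perlecan and agrin, while the interstitial form holds fibrillar collagens, fibronectin and microfibrils. Metalloproteinases cut the matrix, TIMP proteins inhibit them, and lysyl oxidases and lysyl hydroxylases crosslink or prepare collagen. In the liver, hepatocytes secrete much of the plasma fibronectin, whereas stellate cells are the best known source of scar collagen.

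Libraries held 19739582 to 29398257 estimated counts, of which mitochondrially encoded RNA made up 6.55% to 11.92%. ARID1B stood at 35.6, 25.9 and 26.5 CPM in ARID1B-KO with sorafenib and at 26.4, 28.0 and 27.5 CPM with DMSO, against 67.5, 69.1 and 62.3 CPM in wild type with sorafenib and 58.4, 61.9 and 66.7 CPM with DMSO. CPM are counts scaled to library size after TMM normalization. Its log2 fold change was -1.18 ± 0.11 in sorafenib (SE, edgeR adjusted p = 8.89e-06) and -1.19 ± 0.11 in DMSO (adjusted p = 7.44e-06). All 10 hepatocyte markers examined passed the filter, and their summed level was 79691 to 183518 CPM. Of 12 stellate cell and fibroblast markers, COL1A2, DCN, DPT and DES were at 0 in all 12 libraries. So were 3 of 8 endothelial markers (KDR, STAB2 and CLEC4M) and 4 of 8 macrophage and leukocyte markers (PTPRC, MARCO, C1QA and TYROBP). Other markers of these lists were present. By group mean ACTA2 had 25.1 to 78.6 CPM, PDGFRB 1.2 to 17.6 CPM and CD68 28.2 to 47.1 CPM. CDH5 had 1.14 to 6.73 CPM and VWF 0.298 to 1.99 CPM.

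Some libraries stood apart from the others of their group over the matrix genes as a whole. In replicate 3 of ARID1B-KO sorafenib and in replicate 3 of ARID1B-KO DMSO, 33 of 36 tested genes lay below their group mean, with median deviations of -0.32 and -0.26 on the log2 scale, and in replicate 1 of wild-type DMSO all 36 did (-0.22). In replicate 1 of ARID1B-KO sorafenib 33 of 36 lay above it, with a median of 0.31. So did 33 of 36 in replicate 2 of ARID1B-KO DMSO (0.18) and in replicate 2 of wild-type sorafenib (0.16). In replicate 3 of wild-type DMSO 32 of 36 did (0.18). The tested matrix genes are long, with a median effective length of 3693 bases against 1723 bases over all tested genes. Over all tested genes, the 1883 over 4000 bases had median deviations of -0.07, -0.08 and -0.14 in the 3 low libraries. In replicate 1 of ARID1B-KO sorafenib they had 0.09. The 3296 under 1000 bases had 0.11, 0.10, 0.13 and -0.09, in the same order. The part of this length pattern in the results was not tested, and the number of the 36 genes called in each comparison is also given without the 3 low libraries. Those libraries were picked by the values of these same genes, and the libraries that stood high were kept. Calls gained without them are therefore not independent of that choice.

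**Figure D1:**
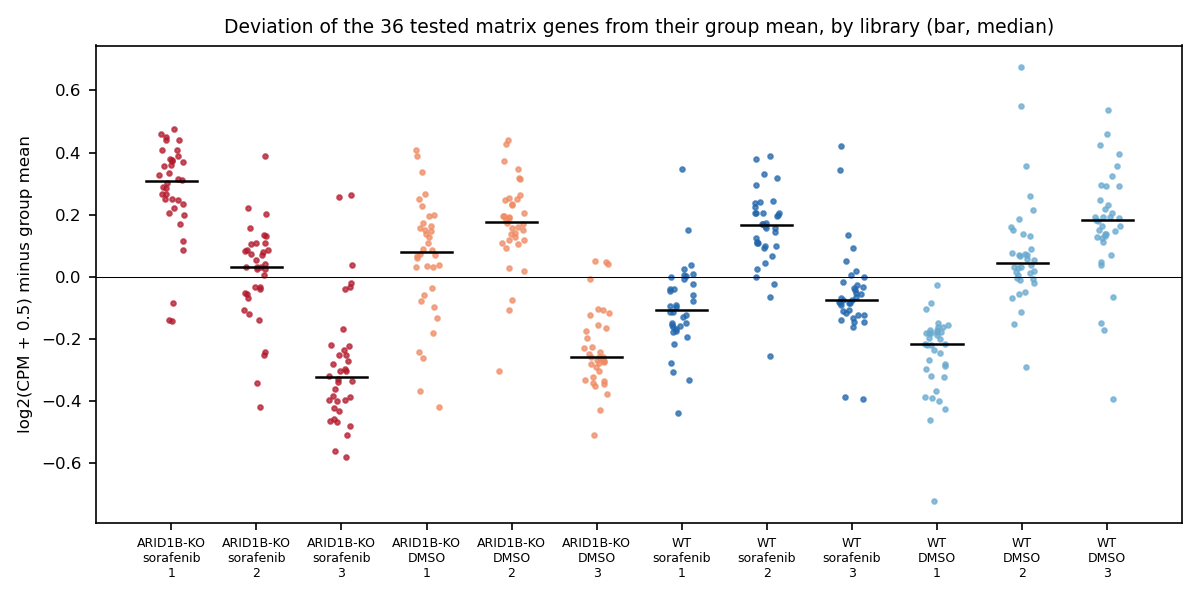
Deviation of each of the 36 tested matrix genes from its group mean, as log2(CPM + 0.5), in each library. Points are genes, bars are medians, and replicate numbers stand under the groups; the medians of replicate 3 of both ARID1B-KO groups (-0.32 with sorafenib, -0.26 with DMSO) and of replicate 1 of wild-type DMSO (-0.22) lie lowest.

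Per length, summed over all annotated transcripts of a gene, FN1, which encodes fibronectin, was the highest of the 44 genes in every group. Its summed level averaged 2976 ± 255 TPM in ARID1B-KO with sorafenib and 3133 ± 388 TPM with DMSO, against 2924 ± 189.8 TPM in wild type with sorafenib and 4695 ± 534 TPM with DMSO (SD, n = 3 libraries, here and for all group means). TGFBI, an adhesive protein that binds collagen, stood next, at 1077 ± 135 TPM in ARID1B-KO with sorafenib and 767 ± 155 TPM with DMSO, against 495 ± 42.1 TPM in wild type with sorafenib and 480.1 ± 71.4 TPM with DMSO. SPP1, which encodes osteopontin, and the laminin chain gene LAMB2 followed. In wild-type DMSO they averaged 284 ± 45.2 and 278 ± 69.6 TPM, a difference within their spread, and PLOD2 (198 ± 24.5), LAMA5 (196) and LAMC1 (196 ± 55.8 TPM) were also within the spread of each other. These ranks hold for summed TPM only, since noncoding transcripts were estimated to make up most of it for several genes. In wild-type DMSO coding transcripts held 17.4% of the TPM of FN1, 10.5% of LAMB2, 6.35% of LAMA5 and 19.7% of LAMC1, but 74.7% of TGFBI and 99.5% of SPP1. Counted over coding transcripts alone, TGFBI stood above FN1 in ARID1B-KO, at 798 ± 81.3 against 406 ± 111 TPM with sorafenib and 574 ± 115 against 502 ± 84.6 TPM with DMSO, the DMSO values within their spread. SPP1 averaged 529 ± 145 TPM in ARID1B-KO with sorafenib, also above FN1 but within their spread, and 349.7 ± 39.3 TPM with DMSO. In wild type FN1 stood first, at 534 ± 68.9 TPM with sorafenib and 822 ± 151 TPM with DMSO, where TGFBI had 379.7 ± 38.7 and 357 ± 39.6 TPM. SPP1 had 380.2 ± 32.4 and 283 ± 44.6 TPM there, level with TGFBI in sorafenib. Together the 44 genes took 0.858% to 1.18% of the counts of an ARID1B-KO sorafenib library and 0.782% to 1.04% of an ARID1B-KO DMSO library, against 1.02% to 1.25% in wild-type sorafenib and 1.15% to 1.55% in wild-type DMSO. FN1 alone took 0.306% to 0.441% in ARID1B-KO sorafenib and 0.367% to 0.506% in ARID1B-KO DMSO, against 0.442% to 0.569% in wild-type sorafenib and 0.673% to 0.928% in wild-type DMSO.

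**Figure D2:**
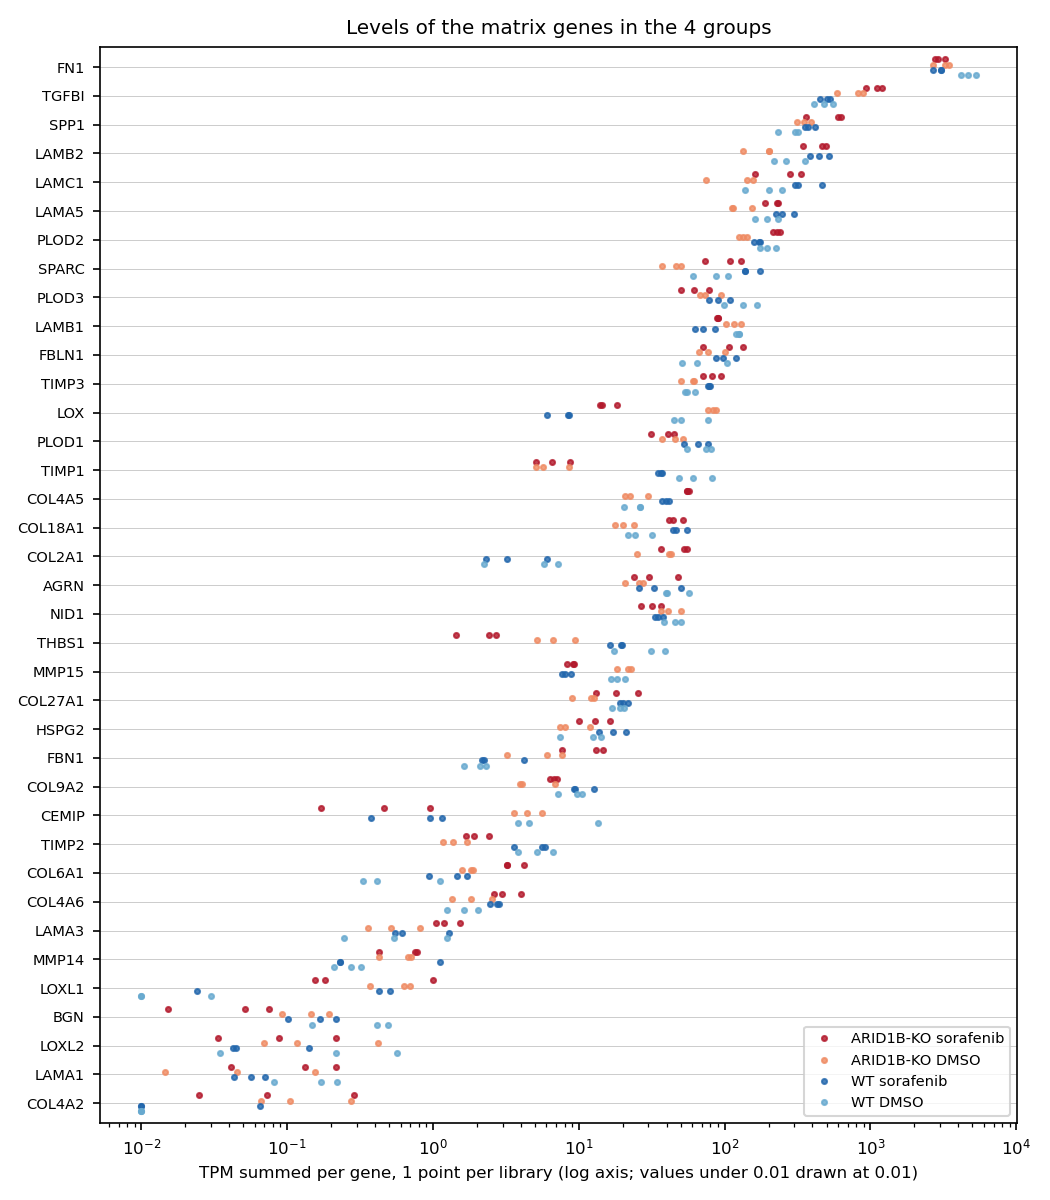
TPM of the matrix genes whose highest group mean was at least 0.1 TPM, on a log axis, with a point for each library and a colour for each group. TPM are summed over all transcripts of a gene. FN1 lies highest in all 4 groups on this sum, and COL2A1, TIMP1, THBS1, TIMP2 and FBN1 show the genotypes apart, while LOX and CEMIP show the treatments apart.

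Several chains were near or at 0. COL4A1 and COL4A2, the usual type IV chains of basement membranes, held 1 and 25 counts over the 12 libraries, COL5A1 held 1 and COL6A2 held 45, while COL4A5 held 19559, COL18A1 held 114139 and COL6A1 held 2949. The fibulin gene EFEMP1 held 0 counts in all 12 libraries. A 0 in a single library, taken alone, allows up to 3 counts there by counting error. LOXL1, LOXL2, LAMA1 and BGN passed the filter at group means of at most 1.08 CPM, so their fold changes carry wide errors.

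Between genotypes in DMSO, the matrix genes that rose in ARID1B-KO were COL2A1, FBN1, MMP14, COL6A1, LOX and TGFBI, and those that fell were TIMP1, TIMP2, THBS1, CEMIP, COL27A1, FN1, SPARC, COL9A2 and PLOD2. That is 15 of 36 tested genes called at an edgeR adjusted p under 0.05 (41.7%), where 27.8% of all tested genes were called. The 6 higher make 16.7%, against 14.3% of all genes, and the 9 lower make 25.0%, against 13.5%. The median log2 fold change of the 36 was -0.40, and that of all genes 0.01. That median was -0.20 without ARID1B-KO DMSO replicate 3 and -0.26 without wild-type DMSO replicate 3. The genes called higher numbered 2 without ARID1B-KO DMSO replicate 2 or wild-type DMSO replicate 1, and 3 without ARID1B-KO DMSO replicate 1 or wild-type DMSO replicate 2. Over all tested genes, those 4 fits called 1529 of 13053, 1813 of 13017, 1385 of 13040 and 1276 of 13050 higher, in the same order. Without the 3 low libraries 18 were called, 4 higher (11.1%) and 14 lower (38.9%). Of all 12923 genes tested in that fit, 1727 were higher and 1783 lower. Of the 12 tested basement membrane collagens, laminins and linkers edgeR called 0 between genotypes in DMSO, with log2 fold changes of -0.62 (HSPG2) to 0.22 (LAMA3). At an unadjusted p under 0.05 there were 4 (HSPG2, LAMA5, LAMB2 and LAMC1, all lower), and DESeq2 called 2 (HSPG2 and LAMA5). Without the 3 low libraries edgeR called 3 of the 12 lower (LAMA5, LAMB2 and LAMC1).

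Summed endothelial markers were higher in ARID1B-KO than in wild type under both treatments. Summed macrophage and leukocyte markers were higher in DMSO and overlapped between genotypes in sorafenib. Endothelial markers summed to 7.5 to 10.8 CPM in ARID1B-KO with sorafenib and 2.93 to 6.7 CPM with DMSO, against 3.26 to 4.52 CPM in wild type with sorafenib and 1.37 to 2.25 CPM with DMSO. CDH5 made up most of that sum, with means of 6.73 and 3.47 CPM in ARID1B-KO, against 2.52 and 1.14 CPM in wild type. VWF was also higher in ARID1B-KO. PECAM1 (0.0867 and 0.0951 CPM, against 0.458 and 0.127 CPM) and STAB1 (0.298 and 0.0 CPM, against 0.421 and 0.219 CPM) had lower means in ARID1B-KO, at very low levels. Macrophage and leukocyte markers summed to 29.7 to 46.4 CPM in ARID1B-KO with sorafenib and 38.0 to 52.7 CPM with DMSO, against 27.4 to 32.1 CPM in wild type with sorafenib and 26.3 to 31.6 CPM with DMSO. CD68 made up most of the macrophage and leukocyte sum, with means of 39.8 CPM in ARID1B-KO with sorafenib and 47.1 CPM with DMSO. In wild type CD68 averaged 28.8 CPM with sorafenib and 28.2 CPM with DMSO. Of each list 2 of 8 genes passed the filter, and the part of these markers in the genotype results was not tested.

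The metalloproteinase inhibitor TIMP1 had the largest fall of the 36 genes in DMSO. The inhibitor TIMP2 and the glycoprotein THBS1 (-2.01 ± 0.24) came next, level within their errors. TIMP1, an inhibitor of most matrix metalloproteinases, had 2.23, 4.22 and 3.27 CPM in ARID1B-KO DMSO libraries, against 20.0, 20.3 and 28.4 CPM in wild-type DMSO libraries. The 3 knockout values were all under the 3 wild-type values, and the log2 fold change was -2.82 ± 0.22 (SE, adjusted p = 1.54e-06), 7.04-fold lower. TIMP2, which inhibits metalloproteinases and also takes part in activating MMP2, had 5.18, 6.51 and 5.14 CPM in ARID1B-KO and 18.0, 23.1 and 27.8 CPM in wild type. Its groups did not overlap either, with a log2 fold change of -2.03 ± 0.25 (adjusted p = 8.15e-05). TIMP3, the matrix-bound inhibitor, did not pass the test, at -0.18 ± 0.17 (95% interval -0.51 to 0.15, adjusted p = 0.455). MMP14, a membrane-anchored metalloproteinase that cuts collagen, stayed under 5 CPM in every group mean and rose without overlap, with a log2 fold change of 0.92 ± 0.29 (adjusted p = 0.0329). MMP15, a related membrane enzyme, did not pass (-0.08 ± 0.18, interval -0.43 to 0.27).

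CEMIP, lower in ARID1B-KO than in wild type, encodes a protein that binds hyaluronan and takes part in its breakdown. It had 17.1, 22.5 and 17.2 CPM in ARID1B-KO DMSO libraries, against 32.3, 40.5 and 58.7 CPM in wild-type DMSO libraries, without overlap. The log2 fold change was -1.21 ± 0.20 (adjusted p = 0.000797). With an offset for transcript length it was -0.74, with an adjusted p of 0.408, and it was then not called.

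Among glycoproteins, THBS1, which encodes the secreted adhesion regulator thrombospondin-1, had 48.6, 45.0 and 32.5 CPM in ARID1B-KO DMSO libraries, against 128, 167 and 212 CPM in wild type. The groups were far apart, with a log2 fold change of -2.01 ± 0.24 (adjusted p = 0.000107), 4.02-fold lower. FN1 had 4750.2, 4885 and 3378 CPM in ARID1B-KO, against 6564, 8326 and 9016 CPM in wild type. Its highest ARID1B-KO library lay below its lowest wild-type library, and the log2 fold change was -0.88 ± 0.21 (adjusted p = 0.00876). SPARC, a collagen-binding protein of basement membranes, had 43.1, 41.5 and 31.1 CPM in ARID1B-KO, against 59.2, 73.0 and 80.5 CPM in wild type, again without overlap (-0.88 ± 0.19, adjusted p = 0.00537). In the other direction, FBN1, the main subunit of microfibrils, had 24.5, 21.8 and 13.4 CPM in ARID1B-KO, against 7.97, 10.4 and 8.47 CPM in wild type. All ARID1B-KO libraries were higher (1.16 ± 0.22, adjusted p = 0.00216). TGFBI had 679, 708 and 519.9 CPM in ARID1B-KO, against 401, 442 and 509.7 CPM in wild type, groups that barely separated (0.50 ± 0.15, adjusted p = 0.0233).

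COL2A1 stood out among the collagens. This gene for the fibrillar collagen of cartilage had 169.6, 194 and 137 CPM in ARID1B-KO DMSO libraries, against 14.5, 18.3 and 19.1 CPM in wild-type DMSO libraries. The lowest ARID1B-KO library was several times the highest wild-type library, and the log2 fold change was 3.27 ± 0.17 (adjusted p = 5.27e-08), 9.64-fold higher. COL27A1, another fibrillar collagen gene, had 62.0, 100.2 and 83.0 CPM in ARID1B-KO, against 136, 187 and 184 CPM in wild type, lower in every ARID1B-KO library (-1.05 ± 0.18, adjusted p = 0.00125). COL9A2, a chain of a collagen that decorates type II fibrils in cartilage, had 26.9, 30.7 and 25.4 CPM in ARID1B-KO, against 42.7, 55.3 and 52.3 CPM in wild type, also without overlap (-0.86 ± 0.13, adjusted p = 0.000464). COL6A1, a chain of the beaded-filament type VI collagen, had 8.37, 9.43 and 6.92 CPM in ARID1B-KO, against 4.65, 4.02 and 6.78 CPM in wild type, a narrow separation (0.67 ± 0.20, adjusted p = 0.0238).

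Of the crosslinking enzymes, LOX, the lysyl oxidase that crosslinks collagen and elastin, had 138, 127 and 110.2 CPM in ARID1B-KO DMSO libraries, against 75.3, 79.0 and 105 CPM in wild type. The groups did not overlap (0.54 ± 0.18, adjusted p = 0.0416). PLOD2, which hydroxylates the lysines used for stable crosslinks, had 222, 189 and 155 CPM in ARID1B-KO, against 264, 267 and 276 CPM in wild type, lower in every ARID1B-KO library (-0.51 ± 0.13, adjusted p = 0.00941). The related hydroxylase genes PLOD1 and PLOD3 did not pass, at -0.45 ± 0.17 (adjusted p = 0.0685) and -0.37 ± 0.18 (adjusted p = 0.142).

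The calls of LOX, TGFBI, COL6A1 and MMP14 depended on single libraries. LOX was not called without ARID1B-KO DMSO replicate 1 (adjusted p = 0.132) or 2 (0.0906), wild-type DMSO replicate 1 (0.119) or 2 (0.136), or ARID1B-KO sorafenib replicate 2 (0.0527). TGFBI was not called without ARID1B-KO DMSO replicate 1 (0.089) or 2 (0.0977) or wild-type DMSO replicate 1 (0.0746) or 2 (0.0764). COL6A1 was not called without the same 4 libraries (0.0665, 0.0911, 0.0699 and 0.0988), and MMP14 was not called without ARID1B-KO DMSO replicate 2 (0.156) or wild-type DMSO replicate 1 (0.09) or 2 (0.0935). An offset for transcript length moved COL6A1 to 1.48 and ended the calls of LOX (adjusted p = 0.0769) and MMP14 (0.212). Without the 3 low libraries together LOX (0.101) and COL6A1 (0.0504) were not called, and with no filter on low counts LOX was not (0.0656).

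**Figure D3:**
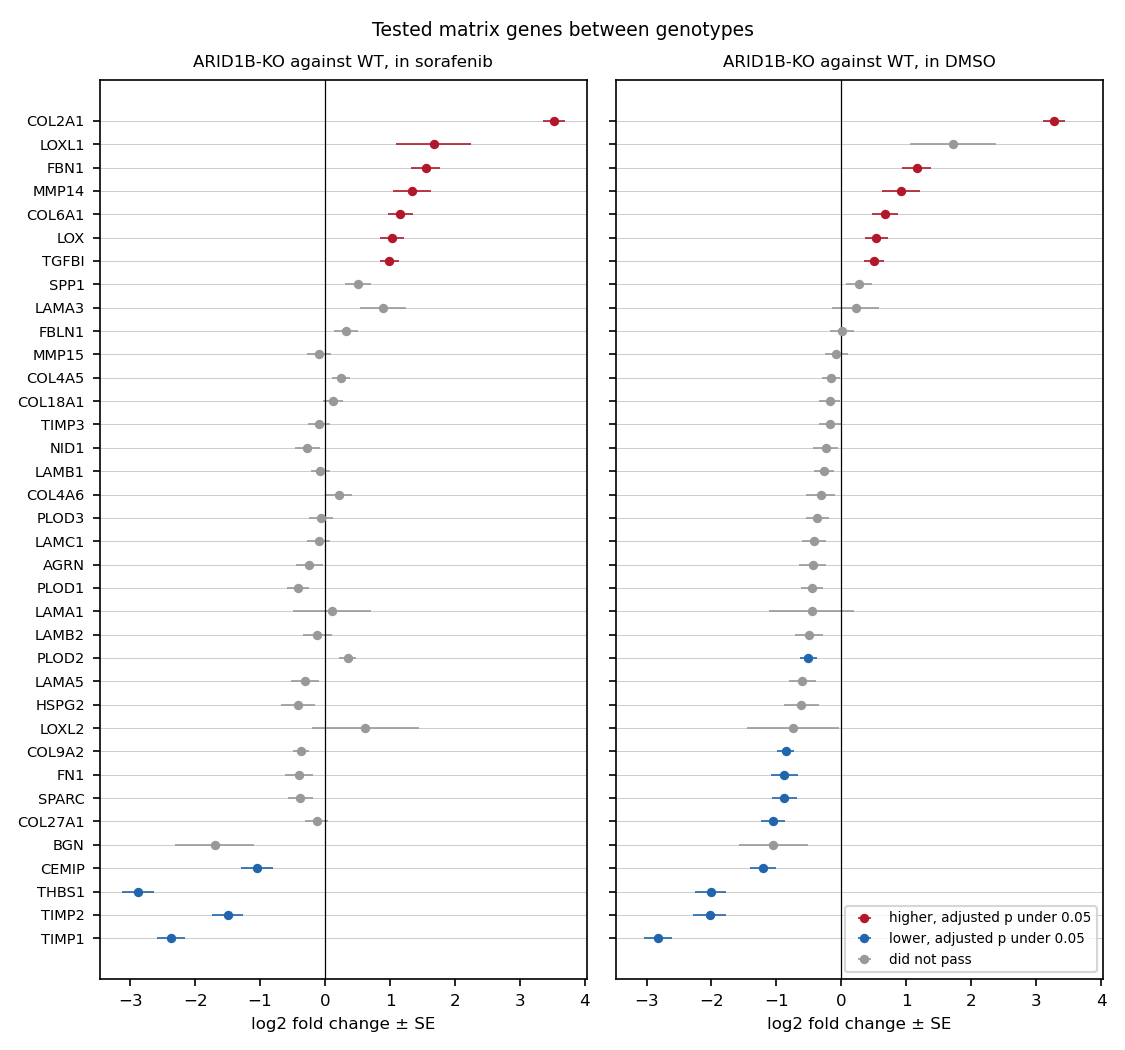
Log2 fold change ± SE of the 36 tested matrix genes in ARID1B-KO against wild type, in sorafenib (left) and in DMSO (right), ordered by the DMSO value. COL2A1 lies farthest right in both panels (3.52 and 3.27), and TIMP1 farthest left in DMSO (-2.82) and THBS1 in sorafenib (-2.88).

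Under sorafenib, 11 of 36 genes were called between genotypes (30.6%), where 27.0% of all tested genes were called, 7 higher (19.4%, against 13.2%) and 4 lower (11.1%, against 13.8%). Without ARID1B-KO sorafenib replicate 1 the counts were 6 higher and 8 lower, where of all 13016 genes tested 1558 were higher and 1640 lower. Without the 3 low libraries they were 11 higher (30.6%) and 4 lower (11.1%), where of all 12923 genes tested 1897 were higher and 1813 lower. Of the 12 basement membrane collagens, laminins and linkers edgeR again called 0, with 1 at an unadjusted p under 0.05 and 1 called by DESeq2, LAMA3 in both cases, and without the 3 low libraries edgeR called 2 (COL4A5 and LAMA3, higher). The genotypes were compared in separate libraries under each treatment. Of the 11, 10 were the genes called the same way in DMSO: COL2A1, FBN1, MMP14, COL6A1, LOX and TGFBI were higher in ARID1B-KO under both treatments, and THBS1, TIMP1, TIMP2 and CEMIP were lower under both. Those 10 make 90.9% of the genes called under sorafenib and 66.7% of those called in DMSO, where over all tested genes the shared calls make 57.3% and 55.7%. Without the 3 low libraries the shared matrix calls make 53.3% and 44.4%, and those of all genes 51.8% and 54.7%.

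The sorafenib values of these genes were set apart by genotype as follows. COL2A1 had 269, 239.6 and 179 CPM in ARID1B-KO, against 19.4, 21.5 and 19.3 CPM in wild type, 11.4-fold higher (3.52 ± 0.17, adjusted p = 3.78e-08). THBS1 had 17.8, 15.9 and 9.18 CPM in ARID1B-KO, against 99.7, 118 and 99.4 CPM in wild type, 7.36-fold lower (-2.88 ± 0.25, adjusted p = 1.11e-05). For TIMP1 the libraries had 3.37, 3.35 and 2.57 CPM in ARID1B-KO, against 14.3, 18.4 and 15.5 CPM in wild type (-2.37 ± 0.22, adjusted p = 7.27e-06). In none of these 3 genes did the genotypes overlap. TIMP2 had 10.7, 7.34 and 6.37 CPM in ARID1B-KO, against 16.5, 29.7 and 23.4 CPM in wild type (-1.50 ± 0.24, adjusted p = 0.00068). FBN1 had 45.3, 41.2 and 28.4 CPM in ARID1B-KO, against 13.4, 14.0 and 11.8 CPM in wild type (1.55 ± 0.22, adjusted p = 0.000253). TGFBI had 1155, 1044 and 845 CPM in ARID1B-KO, against 478, 510.3 and 544 CPM in wild type (0.99 ± 0.15, adjusted p = 0.000345), a wider separation than the one seen in DMSO, although the difference between the treatments did not pass the test (0.49 ± 0.21, interaction adjusted p = 0.266).

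Of the others, COL6A1 (1.16 ± 0.19, adjusted p = 0.000816), LOX (1.03 ± 0.19, adjusted p = 0.00201) and MMP14 (1.34 ± 0.29, adjusted p = 0.00471) were higher in ARID1B-KO and CEMIP was lower (-1.05 ± 0.25, adjusted p = 0.00776), in each case without overlap. With the transcript length offset MMP14 (0.44, adjusted p = 0.644) and CEMIP (-0.75, adjusted p = 0.481) were not called. LOXL1, a lysyl oxidase that acts on elastic fibres, was called under sorafenib at group means of at most 1.08 CPM (1.67 ± 0.57, adjusted p = 0.0458). That call was lost without ARID1B-KO sorafenib replicate 1 (adjusted p = 0.183) or 3 (0.0781), wild-type sorafenib replicate 1 (0.16) or 2 (0.132), ARID1B-KO DMSO replicate 1 (0.0602), 2 (0.0643) or 3 (0.0614), or wild-type DMSO replicate 3 (0.0524), with no filter on low counts (0.0734), without the 3 low libraries (0.0682) and with the length offset, which moved it to 0.53 (0.776). The 5 genes called in DMSO and not here were COL27A1 (-0.13 ± 0.18), COL9A2 (-0.37 ± 0.13), FN1 (-0.40 ± 0.21), SPARC (-0.38 ± 0.19) and PLOD2 (0.35 ± 0.13), and only for PLOD2 did the difference between the treatments pass the test.

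With sorafenib, 12 of the 36 genes (33.3%) were called in the same direction in both genotypes, as were 28.2% of all tested genes. COL4A5, COL18A1, COL6A1, LAMB2, LAMC1, SPARC and TIMP3 were higher and LAMB1, THBS1, MMP15, CEMIP and LOX were lower, in ARID1B-KO and in wild type alike. In ARID1B-KO, 23 of 36 genes were called (63.9%), where 46.7% of all tested genes were called, 18 higher, where 23.0% of all genes were higher, and 5 lower (13.9%, against 23.7%), with a median log2 fold change of 0.64. In wild type, 13 were called (36.1%), where 35.4% of all genes were called, 7 higher (19.4%, against 17.5%) and 6 lower (16.7%, against 18.0%), with a median of 0.17. The median was 0.42 in ARID1B-KO without ARID1B-KO sorafenib replicate 1, and 0.07 in wild type without wild-type DMSO replicate 1. Without the 3 low libraries 19 were higher (52.8%) and 5 lower (13.9%) in ARID1B-KO, and 10 higher (27.8%) and 9 lower (25.0%) in wild type. Of all 12923 genes tested in that fit, 2890 were higher and 2657 lower in ARID1B-KO, and 2324 higher and 2331 lower in wild type. The responses were measured against separate DMSO libraries in each genotype. Over the stellate cell and fibroblast markers the summed level also differed between treatments, with 71.9 to 86.7 CPM in sorafenib and 41.2 to 44.1 CPM in DMSO in ARID1B-KO, and 64.0 to 68.5 CPM in sorafenib and 41.1 to 48.8 CPM in DMSO in wild type. Of that list 3 of 12 passed the filter, ACTA2 made up most of the sum, and COL1A2, DCN, DPT and DES were at 0. ACTA2 averaged 78.6 CPM in sorafenib and 37.6 CPM in DMSO in ARID1B-KO, and 61.3 and 25.1 CPM in wild type. PDGFRB went the other way, at 1.2 CPM in sorafenib and 3.74 CPM in DMSO in ARID1B-KO, and 3.51 and 17.6 CPM in wild type. RGS5 was also lower in sorafenib, at 0.81 against 1.07 CPM in ARID1B-KO and 0.813 against 1.23 CPM in wild type. Hepatocyte markers summed to 117583 to 183518 CPM in sorafenib and 90965 to 109684 CPM in DMSO in ARID1B-KO, and to 97493 to 106363 CPM in sorafenib and 79691 to 89392 CPM in DMSO in wild type. The part of either marker list in the matrix results was not tested.

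CEMIP and LOX fell furthest. CEMIP had 2.52, 2.2 and 1.58 CPM in sorafenib and 17.1, 22.5 and 17.2 CPM in DMSO in ARID1B-KO, and 4.09, 4.83 and 4.27 CPM in sorafenib and 32.3, 40.5 and 58.7 CPM in DMSO in wild type. Every sorafenib library lay below every DMSO library of its genotype. The log2 fold changes were -3.16 ± 0.24 in ARID1B-KO (adjusted p = 6.95e-07) and -3.32 ± 0.22 in wild type (adjusted p = 3.95e-07), and their difference was 0.16 ± 0.32 (95% interval -0.47 to 0.79, adjusted p = 0.869). LOX had 24.1, 24.5 and 32.1 CPM in sorafenib and 138, 127 and 110.2 CPM in DMSO in ARID1B-KO, and 11.4, 10.7 and 17.4 CPM in sorafenib and 75.3, 79.0 and 105 CPM in DMSO in wild type. Its treatments were also far apart, 4.66-fold lower in ARID1B-KO (-2.22 ± 0.19, adjusted p = 1.96e-06) and 6.54-fold lower in wild type (-2.71 ± 0.20, adjusted p = 8.7e-07).

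THBS1 fell to 17.8, 15.9 and 9.18 CPM with sorafenib in ARID1B-KO, against 48.6, 45.0 and 32.5 CPM with DMSO, and to 99.7, 118 and 99.4 CPM with sorafenib in wild type, against 128, 167 and 212 CPM with DMSO. The log2 fold changes were -1.55 ± 0.25 in ARID1B-KO (adjusted p = 0.000376) and -0.68 ± 0.23 in wild type (adjusted p = 0.0389), and the difference between them did not pass the test (-0.87 ± 0.34, adjusted p = 0.237). The wild-type call was lost without wild-type sorafenib replicate 1 (adjusted p = 0.104), 2 (0.0578) or 3 (0.106), wild-type DMSO replicate 2 (0.0768) or 3 (0.142), or ARID1B-KO DMSO replicate 2 (0.0548), with no filter on low counts (0.0878) and with the transcript length offset (0.213). MMP15 had 105, 92.7 and 65.1 CPM in sorafenib and 221, 213 and 153 CPM in DMSO in ARID1B-KO, and 82.6, 104 and 94.5 CPM in sorafenib and 182, 208 and 231 CPM in DMSO in wild type. The treatments did not overlap in either genotype, and the log2 fold changes were nearly equal, -1.16 ± 0.18 (adjusted p = 0.000225) and -1.15 ± 0.18 (adjusted p = 0.000357), with a difference of -0.01 ± 0.25 (interval -0.50 to 0.49).

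Promoter windows of 300 bases, from 250 before to 50 after an annotated start, are shown for CEMIP and LOX, which fell furthest with sorafenib, for THBS1, called lower in ARID1B-KO under both treatments and with sorafenib in both genotypes, and for the paired type IV collagen genes whose levels are given next. They come from RefSeq on GRCh38.p14 and read 5′ to 3′ on the gene's strand, with capitals marking matches on either strand. The motifs searched were the CCAAT box, the GC box with the letters GGGCGG, the TATA box with the letters TATAAA, the TEAD motif with the letters GGAATG and the AP-1 motif with the letters TGANTCA. Matches can lie side by side, as in THBS1, where a GC box and a reversed CCAAT are adjacent. The windows are chr15:80779120-80779419 (plus strand) for CEMIP, chr5:122078210-122078509 (minus) for LOX, chr15:39580829-39581128 (plus) for THBS1, chrX:108439588-108439887 (plus) for COL4A5 and chrX:108439409-108439708 (minus) for COL4A6.
CEMIP: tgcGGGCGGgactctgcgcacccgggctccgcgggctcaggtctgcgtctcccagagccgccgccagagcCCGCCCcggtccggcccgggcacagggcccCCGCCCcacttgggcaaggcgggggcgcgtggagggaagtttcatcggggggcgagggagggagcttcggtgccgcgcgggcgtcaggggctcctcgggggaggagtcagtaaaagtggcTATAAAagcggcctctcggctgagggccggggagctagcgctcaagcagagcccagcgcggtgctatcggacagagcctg
LOX: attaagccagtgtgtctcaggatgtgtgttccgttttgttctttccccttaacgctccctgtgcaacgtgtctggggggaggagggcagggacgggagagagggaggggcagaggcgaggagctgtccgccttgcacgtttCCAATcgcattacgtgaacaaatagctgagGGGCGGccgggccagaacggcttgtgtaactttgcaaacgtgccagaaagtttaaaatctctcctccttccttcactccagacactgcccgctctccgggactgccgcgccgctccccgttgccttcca
THBS1: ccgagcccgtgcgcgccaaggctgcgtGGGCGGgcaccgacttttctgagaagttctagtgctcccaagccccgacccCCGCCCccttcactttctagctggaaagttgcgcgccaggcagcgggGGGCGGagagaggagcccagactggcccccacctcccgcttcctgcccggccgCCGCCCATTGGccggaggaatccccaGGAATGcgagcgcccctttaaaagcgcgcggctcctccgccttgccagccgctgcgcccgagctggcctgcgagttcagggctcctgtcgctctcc
COL4A5: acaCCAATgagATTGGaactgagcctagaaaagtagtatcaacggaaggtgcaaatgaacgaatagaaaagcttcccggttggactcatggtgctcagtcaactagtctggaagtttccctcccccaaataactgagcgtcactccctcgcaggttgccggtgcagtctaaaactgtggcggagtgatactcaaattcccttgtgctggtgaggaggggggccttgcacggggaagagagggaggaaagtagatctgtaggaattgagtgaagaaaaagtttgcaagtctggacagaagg
COL4A6: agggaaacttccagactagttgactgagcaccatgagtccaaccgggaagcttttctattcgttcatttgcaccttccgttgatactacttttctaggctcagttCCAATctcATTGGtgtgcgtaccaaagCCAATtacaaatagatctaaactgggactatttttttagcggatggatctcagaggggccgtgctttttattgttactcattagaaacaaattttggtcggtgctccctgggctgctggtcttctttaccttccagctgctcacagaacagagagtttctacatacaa

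The CEMIP window held a TATA box that begins 30 bases before the start and 3 GC boxes. The LOX window shown held a GC box and a CCAAT, 2 other LOX windows held none of the motifs, and the window of THBS1 held 4 GC boxes, a reversed CCAAT and a TEAD motif. The windows of COL4A5 and COL4A6 run in opposite directions from starts 380 bases apart and share 121 bases, so the pair of CCAAT matches near the far end of the COL4A5 window also lies in the COL4A6 window, which holds a further CCAAT nearer its own start. COL4A6 has a second annotated start, whose window (chrX:108438373-108438672) held 1 GC box and no CCAAT. RefSeq windows were found for 37 of the 44 genes, 44 windows in all, since 5 genes have more than 1 start. Of these 44 windows, 36 held a GC box (81.8%), against 45.0% of all 35116 windows, which include genes of every kind. The CCAAT box was in 15 (34.1%, against 34.6% of all), the TATA box in 3 (6.8%, against 11.5%), the TEAD motif in 3 (6.8%, against 14.0%) and the AP-1 motif in 2 (4.5%, against 7.7%). A match is a description of letters and not a bound site, and the absence of one says nothing about the factor.

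**Figure D4:**
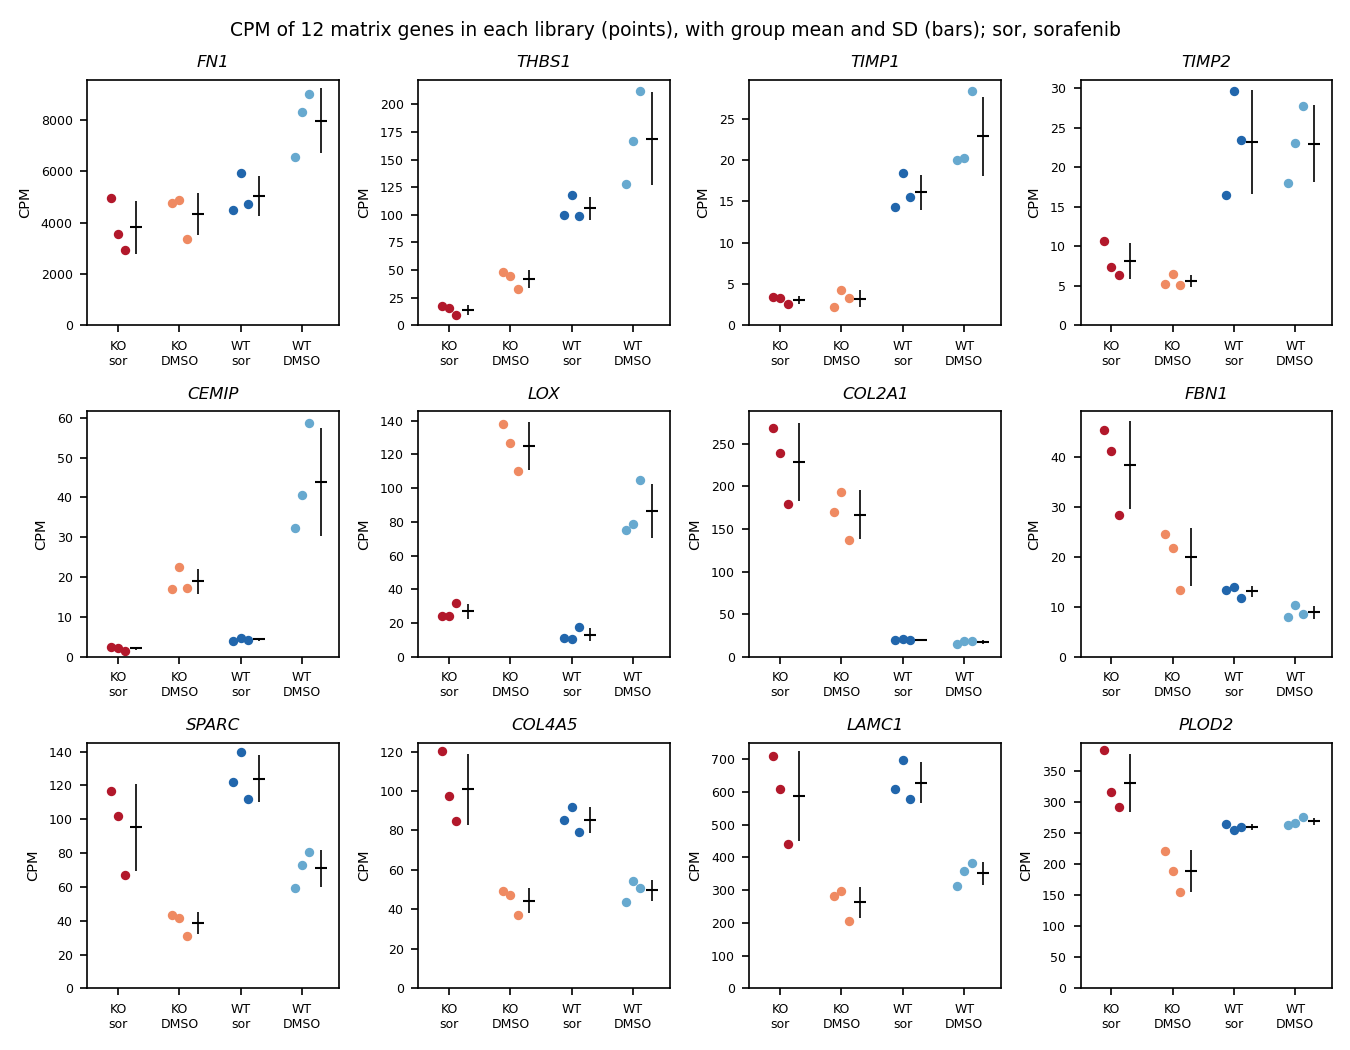
CPM of 12 matrix genes in each library (points), with group mean and SD (bars beside the points), on axes that start at 0. ARID1B-KO groups are on the left of each panel. The sorafenib libraries of CEMIP and LOX lie below all DMSO libraries of the same genotype, and the ARID1B-KO libraries of TIMP1, TIMP2 and THBS1 lie below all wild-type libraries.

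Of the 3 tested basement membrane collagens, all rose with sorafenib in ARID1B-KO, and COL4A5 and COL18A1 rose in wild type. COL4A5, a type IV collagen chain, had 120.2, 97.6 and 84.7 CPM in sorafenib and 49.3, 47.2 and 37.1 CPM in DMSO in ARID1B-KO, and 85.5, 92.1 and 79.0 CPM in sorafenib and 43.7, 54.2 and 51.1 CPM in DMSO in wild type. Treatments did not overlap, and the log2 fold changes were 1.18 ± 0.14 in ARID1B-KO (adjusted p = 2.25e-05) and 0.78 ± 0.14 in wild type (adjusted p = 0.000781). Its divergent neighbour COL4A6, another type IV chain, had 29.8, 22.1 and 18.3 CPM in sorafenib and 10.9, 13.7 and 8.08 CPM in DMSO in ARID1B-KO (1.11 ± 0.22, adjusted p = 0.00134). In wild type COL4A6 had 20.2, 21.7 and 19.1 CPM in sorafenib and 10.1, 16.1 and 14.6 CPM in DMSO, a log2 fold change of 0.58 ± 0.22 that missed the threshold (adjusted p = 0.0533). COL18A1, the gene of the basement membrane collagen whose end fragment is endostatin, had 686, 549 and 472 CPM in sorafenib and 266, 282 and 216 CPM in DMSO in ARID1B-KO (1.16 ± 0.16, adjusted p = 6.42e-05), and 482, 601 and 490.2 CPM in sorafenib and 253, 285 and 327 CPM in DMSO in wild type (0.86 ± 0.16, adjusted p = 0.000919). The 4 groups of COL18A1 fell into a sorafenib pair and a DMSO pair with no overlap between treatments.

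Of the laminins, the chains LAMB2 and LAMC1 rose while LAMB1 fell. LAMC1 had 709, 609.9 and 439 CPM in sorafenib and 283, 297 and 207 CPM in DMSO in ARID1B-KO (1.16 ± 0.18, adjusted p = 0.000171), and 609, 698 and 577 CPM in sorafenib and 312, 357 and 383 CPM in DMSO in wild type (0.84 ± 0.18, adjusted p = 0.00251). LAMB2 had 576, 469 and 323 CPM in sorafenib and 227, 211 and 140.0 CPM in DMSO in ARID1B-KO (1.24 ± 0.23, adjusted p = 0.000722), and 444, 575 and 467 CPM in sorafenib and 221, 281 and 317 CPM in DMSO in wild type (0.86 ± 0.22, adjusted p = 0.00973). For both genes every sorafenib library was above every DMSO library of its genotype. LAMB1 had 212, 182 and 148 CPM in sorafenib and 269, 259 and 199 CPM in DMSO in ARID1B-KO, where the groups overlapped (-0.42 ± 0.15, adjusted p = 0.0333). In wild type it had 177, 213 and 180.5 CPM in sorafenib and 256, 305 and 314 CPM in DMSO, without overlap (-0.62 ± 0.15, adjusted p = 0.00588). LAMA5 rose in ARID1B-KO, with 705, 574 and 437 CPM in sorafenib and 317, 411 and 276 CPM in DMSO (0.77 ± 0.21, adjusted p = 0.00964), and did not pass in wild type (0.48 ± 0.21, adjusted p = 0.096).

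LAMA3, at a far lower level, also rose in ARID1B-KO, with 5.30, 7.56 and 4.49 CPM in sorafenib and 1.90, 3.37 and 2.07 CPM in DMSO (1.24 ± 0.35, adjusted p = 0.0116). Its call was lost without ARID1B-KO sorafenib replicate 2 (adjusted p = 0.0559). The LAMB1 call in ARID1B-KO was lost without ARID1B-KO sorafenib replicate 2 (0.0749) or 3 (0.117), without ARID1B-KO DMSO replicate 1 (0.16) or 2 (0.128), and when only the 6 ARID1B-KO libraries were fitted (0.0669). The length offset also ended the calls of LAMA3 (0.0778) and LAMB1 (0.262) in ARID1B-KO and of LAMC1 in wild type (0.0709). The linkers AGRN, HSPG2 and NID1, which encode agrin, perlecan and nidogen-1, did not pass in either genotype, with log2 fold changes of 0.31 ± 0.21, 0.66 ± 0.27 and -0.34 ± 0.20 in ARID1B-KO and 0.11 ± 0.21, 0.46 ± 0.26 and -0.31 ± 0.19 in wild type.

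SPARC and COL6A1 rose with sorafenib in both genotypes. SPARC had 117, 102 and 66.9 CPM in sorafenib and 43.1, 41.5 and 31.1 CPM in DMSO in ARID1B-KO (1.31 ± 0.20, adjusted p = 0.000167), and 122, 139.7 and 112 CPM in sorafenib and 59.2, 73.0 and 80.5 CPM in DMSO in wild type (0.81 ± 0.19, adjusted p = 0.0055). COL6A1 had 23.5, 17.1 and 20.9 CPM in sorafenib and 8.37, 9.43 and 6.92 CPM in DMSO in ARID1B-KO (1.31 ± 0.20, adjusted p = 0.000135), and 8.75, 10.6 and 8.20 CPM in sorafenib and 4.65, 4.02 and 6.78 CPM in DMSO in wild type (0.83 ± 0.20, adjusted p = 0.00577, and 1.26 with the length offset). Treatments did not overlap for these genes in either genotype. TIMP3 had 540.4, 406 and 332 CPM in sorafenib and 315, 295 and 222 CPM in DMSO in ARID1B-KO (0.62 ± 0.17, adjusted p = 0.00885), and 454, 489 and 421 CPM in sorafenib and 296, 302 and 345 CPM in DMSO in wild type (0.53 ± 0.17, adjusted p = 0.0255). The wild-type call of TIMP3 was lost without wild-type sorafenib replicate 1 (adjusted p = 0.0597) or 2 (0.0844), or wild-type DMSO replicate 1 (0.0773) or 2 (0.0796). TIMP1 and TIMP2 did not pass in either genotype.

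FN1 fell with sorafenib in wild type, to 4489.6, 5922 and 4720.0 CPM, against 6564, 8326 and 9016 CPM with DMSO (-0.66 ± 0.21, adjusted p = 0.0285), while in ARID1B-KO its 4942, 3557 and 2944 CPM with sorafenib overlapped its 4750.2, 4885 and 3378 CPM with DMSO (-0.19 ± 0.21, adjusted p = 0.507). The difference between genotypes did not pass (0.47 ± 0.30, adjusted p = 0.488). The wild-type call was lost without wild-type sorafenib replicate 1 (adjusted p = 0.102) or 3 (0.0941), or wild-type DMSO replicate 2 (0.0783) or 3 (0.0959).

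**Figure D5:**
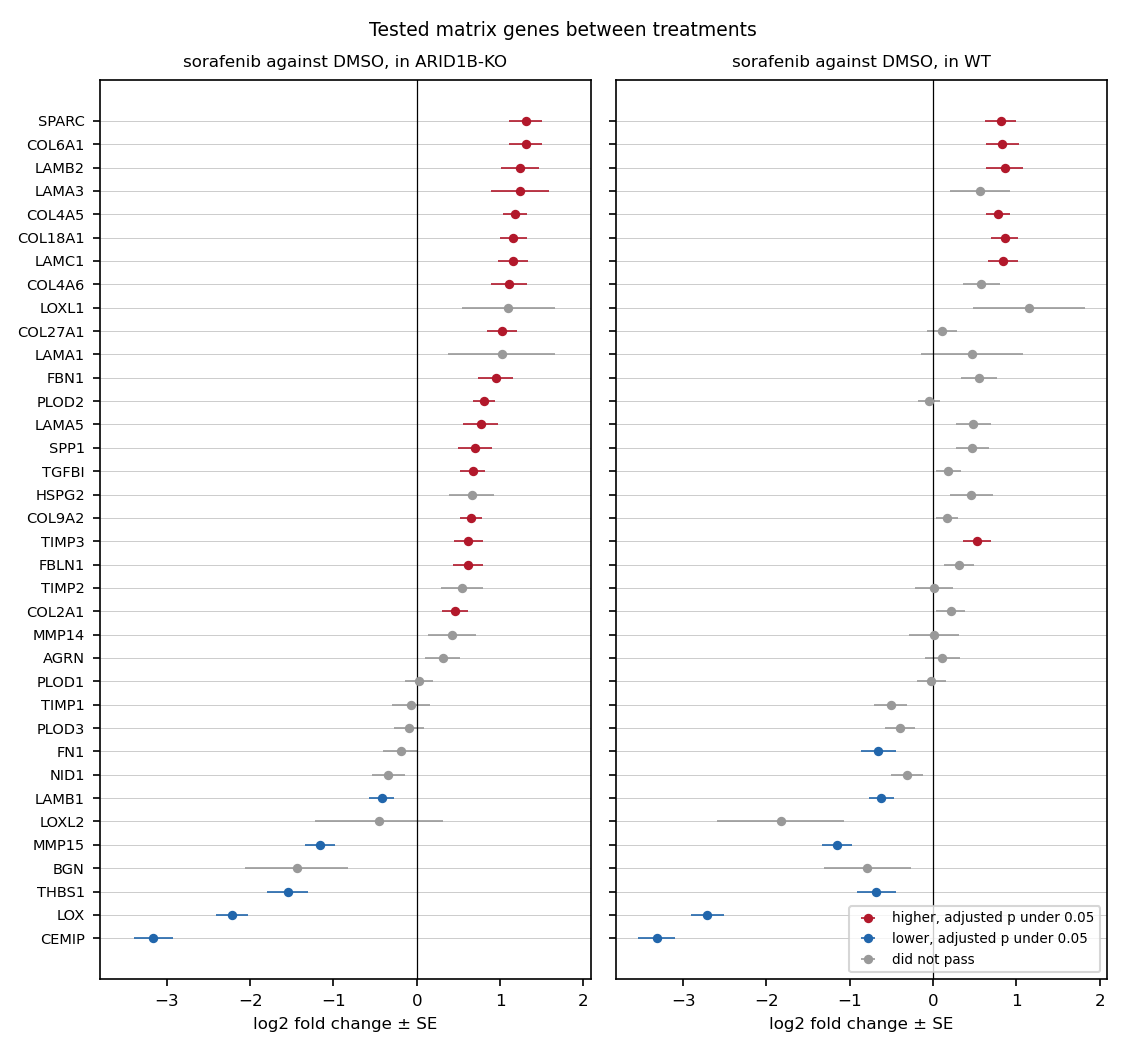
Log2 fold change ± SE of the 36 tested matrix genes in sorafenib against DMSO, in ARID1B-KO (left) and in wild type (right), ordered by the ARID1B-KO value. CEMIP and LOX lie farthest left in both panels, and SPARC, COL6A1, LAMB2, COL4A5, COL18A1 and LAMC1 are above 0 and called in both.

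The other genes that rose with sorafenib and were called in ARID1B-KO alone were COL2A1, COL27A1, COL9A2, SPP1, FBLN1, FBN1, TGFBI and PLOD2, beside COL4A6, LAMA3 and LAMA5 above. COL27A1 had 175, 130.1 and 197 CPM in sorafenib and 62.0, 100.2 and 83.0 CPM in DMSO (1.03 ± 0.18, adjusted p = 0.000633), without overlap, and 0.11 ± 0.18 in wild type. FBN1 rose by 0.95 ± 0.21 (adjusted p = 0.00293), against 0.55 ± 0.22 in wild type (adjusted p = 0.0712), and TGFBI by 0.67 ± 0.15 (adjusted p = 0.00221), against 0.18 ± 0.15 in wild type (adjusted p = 0.37). COL9A2 rose by 0.65 ± 0.13 (adjusted p = 0.0015) and by 0.58 with the length offset, where it was not called (0.0571). SPP1 (0.70 ± 0.20, adjusted p = 0.0106), FBLN1, which encodes fibulin-1 (0.61 ± 0.18, adjusted p = 0.0155), and COL2A1 (0.46 ± 0.16, adjusted p = 0.0288) rose with groups that overlapped. SPP1 was lost without ARID1B-KO sorafenib replicate 1 (0.0505), and FBLN1 without that library (0.0732), ARID1B-KO DMSO replicate 1 (0.0509) or 3 (0.0572), or with the length offset (0.206). COL2A1 was lost without ARID1B-KO sorafenib replicate 1 (0.119) or 2 (0.0814), ARID1B-KO DMSO replicate 1 (0.0566) or 3 (0.107), in a fit of only the 6 libraries compared (0.0662), and with the length offset (0.345). COL27A1, COL9A2, SPARC and PLOD2 were also lower in ARID1B-KO than in wild type in DMSO, and both of those comparisons use the same ARID1B-KO DMSO libraries.

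The direct test of whether sorafenib acted differently in ARID1B-KO than in wild type called 1 of the 36 genes (2.78%), where 0.835% of all tested genes were called. That gene was PLOD2, which had 384, 317 and 293 CPM in sorafenib and 222, 189 and 155 CPM in DMSO in ARID1B-KO, and 265, 256 and 260.0 CPM in sorafenib and 264, 267 and 276 CPM in DMSO in wild type. Sorafenib and DMSO were apart in ARID1B-KO and overlapped in wild type. The response was 0.81 ± 0.13 in ARID1B-KO (adjusted p = 0.000198) and -0.05 ± 0.13 in wild type (adjusted p = 0.8), and the difference was 0.86 ± 0.18 (adjusted p = 0.0438). The call did not hold without ARID1B-KO sorafenib replicate 1 (adjusted p = 0.0854) or 2 (0.0854), ARID1B-KO DMSO replicate 2 (0.0869) or 3 (0.0743), wild-type sorafenib replicate 1 (0.111), 2 (0.103) or 3 (0.119), or wild-type DMSO replicate 1 (0.0638), 2 (0.113) or 3 (0.0988), with values of 0.75 to 1.01 over the 12 fits that each leave out 1 library. Larger or similar differences with wider errors, in LOXL2 (1.38 ± 1.09, adjusted p = 0.597), COL27A1 (0.92 ± 0.26, adjusted p = 0.113) and THBS1 (-0.87 ± 0.34, adjusted p = 0.237), did not pass. DESeq2 called COL27A1 (0.93, adjusted p = 0.0157) beside PLOD2. Without the 3 low libraries, which were picked by the values of these same genes, edgeR called SPARC (0.70, adjusted p = 0.045) beside PLOD2. Of the 36 differences 31 were above 0, with a median of 0.35, while 48.6% of all genes were above 0, with a median of -0.01. The median of the 36 was 0.16 without ARID1B-KO sorafenib replicate 1 and 0.21 without ARID1B-KO DMSO replicate 3.

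Reads of these genes were spread over several annotated transcripts. For 27 of the 36 tested genes at least 2 transcripts held 10% or more of the counts in some group. SPARC-202, annotated as a retained-intron transcript, held 71.4% ± 0.584 of SPARC counts in ARID1B-KO with sorafenib and 71.6% ± 2.4 with DMSO, against 67.9% ± 2.01 in wild type with sorafenib and 70.6% ± 2.13 with DMSO. FBN1-204, annotated to undergo nonsense-mediated decay, held 62.6% ± 8.31 of FBN1 counts in ARID1B-KO with sorafenib and 63.6% ± 9.71 with DMSO, against 53.4% ± 0.837 in wild type with sorafenib and 50.2% ± 1.79 with DMSO. Coding transcripts held 67.7% of FN1 counts in ARID1B-KO with sorafenib and 75.3% with DMSO, against 81.1% in wild type with sorafenib and 81.4% with DMSO. Of FN1 TPM, which divide by transcript length, they held 13.5% and 16.0% in ARID1B-KO with sorafenib and with DMSO, against 18.2% and 17.4% in wild type. Most FN1 TPM was thus assigned to noncoding transcripts. The retained-intron transcript FN1-225 held 8.41% of FN1 counts but 47.7% of its TPM in wild-type DMSO. Reads that fit several transcripts are divided between them by estimation, so these shares are estimates.

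LAMB2 differed between genotypes in which coding transcript carried its counts. LAMB2-202 held 22.3%, 31.8% and 31.3% in ARID1B-KO with sorafenib and 36.5%, 51.4% and 41.8% with DMSO, against 15.7%, 5.39% and 5.18% in wild type with sorafenib and 5.81%, 1.13% and 3.91% with DMSO. LAMB2-201 held 40.5%, 24.7% and 23.6% in ARID1B-KO with sorafenib and 29.0%, 13.2% and 24.1% with DMSO, against 49.2%, 60.5% and 59.4% in wild type with sorafenib and 56.5%, 63.6% and 57.8% with DMSO. The genotypes did not overlap for either transcript under either treatment, while the summed LAMB2 level was not called between genotypes. Shares were not tested, and reads that fit both transcripts are divided between them by estimation. In HSPG2 the retained-intron transcript HSPG2-211 held 33.6% ± 5.08 in ARID1B-KO with sorafenib and 24.9% ± 2.81 with DMSO, against 19.0% ± 5.51 in wild type with sorafenib and 15.9% ± 3.98 with DMSO.

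A wider list of 179 other matrix genes, of which 92 were tested, gives the setting. Between genotypes in DMSO 10 rose (10.9%, against 14.3% of all tested genes) and 39 fell (42.4%, against 13.5%), and in sorafenib 13 rose (14.1%, against 13.2%) and 28 fell (30.4%, against 13.8%). With sorafenib 23 rose (25.0%, against 23.0%) and 14 fell (15.2%, against 23.7%) in ARID1B-KO, and 14 rose (15.2%, against 17.5%) and 23 fell (25.0%, against 18.0%) in wild type. COL26A1, a collagen gene outside the main list, averaged 29.1 ± 3.80 CPM in ARID1B-KO DMSO, against 0.577 ± 0.236 CPM in wild-type DMSO (5.68 ± 0.26, adjusted p = 1.39e-08). The heparan sulfate proteoglycan gene GPC3 averaged 14.7 ± 2.45 CPM, against 481 ± 15.4 CPM (-5.03 ± 0.22, adjusted p = 1.39e-08), EMILIN1, an elastic fibre protein, 2.27 ± 0.676 CPM, against 57.0 ± 10.5 CPM (-4.64 ± 0.23, adjusted p = 2.95e-08), and the matricellular gene CCN1 1.42 ± 0.440 CPM, against 24.3 ± 8.32 CPM (-4.08 ± 0.26, adjusted p = 2.97e-07). Of 17 tested matrix receptors 10 fell in DMSO (58.8%, against 13.5% of all tested genes), among them SDC4 (-1.59 ± 0.17, adjusted p = 2.86e-05) and the collagen receptor chain ITGA2 (-1.32 ± 0.22, adjusted p = 0.000917).

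With sorafenib, the metalloproteinase gene MMP11 rose in ARID1B-KO, to 45.4 ± 12.7 CPM, against 9.35 ± 1.23 CPM in DMSO (2.28 ± 0.18, adjusted p = 1.1e-06), and in wild type, to 41.2 ± 2.54 CPM, against 10.6 ± 1.38 CPM (1.96 ± 0.18, adjusted p = 5.32e-06). The matricellular gene CCN2 fell in ARID1B-KO (-2.37 ± 0.16, adjusted p = 2.31e-07) and in wild type (-1.58 ± 0.15, adjusted p = 7e-06). CEMIP2, a membrane protein gene related to CEMIP, fell by 0.98 ± 0.20 (adjusted p = 0.0018) in ARID1B-KO and by 1.17 ± 0.20 (adjusted p = 0.000781) in wild type. The collagen prolyl hydroxylase family members P3H3 (-0.81 ± 0.16, adjusted p = 0.00135) and P3H4 (-0.79 ± 0.15, adjusted p = 0.000882) fell in ARID1B-KO, and P3H3 (-0.82 ± 0.16, adjusted p = 0.00151) and P3H4 (-0.75 ± 0.15, adjusted p = 0.00168) fell in wild type.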

How the data were processed

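Poly(A) RNA of 12 HepG2 libraries was sequenced, per the labels, and deposited as Salmon tables of 177456 transcripts. Estimated counts and TPM were computed by the authors with Salmon on GRCh38, per the submitters' processing notes, which also name DESeq2 1.46.0. The Salmon version and strand setting are not given in the sources used here. Of the transcripts 93.3% matched GENCODE 44 by ID, and the unmatched held 2.87% to 3.2% of counts. The deposited estimated counts were summed per gene and rounded. All 12 libraries were fitted in R 4.3.3 with edgeR 4.0.16 (TMM, robust quasi-likelihood, 5 contrasts), with Benjamini-Hochberg adjustment across the 12821 genes past the filter and calls at an adjusted p under 0.05. The test was tried on simulated data first. Deposited TPM were summed per gene to compare levels between genes, with no test. Replicates are separate samples in the labels. Alternatives were the replicate block, RLE, DESeq2 1.42.0, no filter, a transcript length offset, only the 6 libraries compared and each library left out. Leaving out 3 libraries together was chosen after seeing the data, by the values of the same genes that were then tested. Genes, lists and tests were chosen with earlier results of these data known. Described in full are genes of the 44 that were called and reached a mean of 5 CPM in the higher group. Of the other matrix genes, the rule took the 3 with the largest called change per list and contrast, at a mean of at least 5 CPM and without overlap. Counting intervals cover counting error only.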

Additional observations from a re-analysis of the deposited data

Results flagged for a closer look

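PLOD2, the lysyl hydroxylase gene, was the gene among the 36 tested whose response to sorafenib differed between genotypes by the interaction test of edgeR. The difference of its log2 fold changes was 0.86 ± 0.18 (SE, adjusted p = 0.0438), from 0.81 ± 0.13 in ARID1B-KO and -0.05 ± 0.13 in wild type. Its 3 ARID1B-KO sorafenib libraries lay above its 3 ARID1B-KO DMSO libraries, while the wild-type treatments overlapped. The adjusted p was above 0.05 when each of 10 of the 12 libraries was left out in turn, with a highest value of 0.119.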

How the results depend on the processing

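Over 19 alternatives, 3377 fold changes of the 36 genes were recomputed: 3194 kept their call or lack of one, among them 106 changes of sign where neither value was called, 88 lost a call, 95 gained one and 0 called values reversed. With the transcript length offset, the genes called among all tested were 2214 for ARID1B-KO against wild type in DMSO (3563 without it), 2066 in sorafenib (3463) and 2872 for sorafenib in wild type (4543), and the cause was not tested. Among the other matrix genes, COL16A1 in wild type with sorafenib was 0.95 and reversed to -0.27 with the offset. The interaction was the least stable result. Of the 36 genes it called 1, against 0 with RLE and 0 with the length offset, 2 with DESeq2, 2 without the 3 low libraries and 0 to 1 with a library left out. Over all genes it called 107, against 2 with the length offset, 578 with DESeq2, 199 without the 3 low libraries and 5 to 138 with a library left out. A fit of only the 6 libraries compared gives no interaction. Same-numbered libraries of different groups had correlations of deviations of -0.163 to 0.184, and differently numbered ones -0.169 to 0.183. Between sorafenib and DMSO in wild type, same-numbered pairs had 0.05 to 0.084 and the others -0.079 to 0.008. In ARID1B-KO these ranges were -0.021 to 0.184 and -0.169 to 0.099. Whether the numbers pair the samples cannot be told from such ranges. With the replicate block the interaction called 0 of the 36 genes and 19 of all genes. The other 4 comparisons called 15, 12, 13 and 23 of the 36, and 3381, 3271, 4362 and 5818 of all 12821 genes. The block ended the calls of MMP14 in DMSO (adjusted p = 0.0514), LOXL1 in sorafenib (0.0736), THBS1 with sorafenib in wild type (0.057) and the PLOD2 interaction (0.0599). Genes under a few CPM (LOXL1, LOXL2, LAMA1 and BGN) are limited by depth.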
